A study of Mus musculus with 11 samples.

Results

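The brush border peptidases Ace, Anpep, Enpep, Dpp4, Mep1a, Mep1b, Naaladl1 and Xpnpep2 and the intestinal alkaline phosphatase Alpi were examined in colonic epithelial cells of RAG1 KO mice during inflammation. These 9 genes were chosen by symbol, all 9 were present among the 52550 genes of the read count table, and all 9 passed the filter on low counts that left 15044 genes for testing. The mice were RAG1 KO animals of the C57BL/6 strain, which lack mature T and B cells, and both diet groups carried this deletion. The 6 FFD mice received the fiber-free diet and the 5 CD mice the same diet with cellulose as its only fiber. According to the paper, both diets held free amino acids, in amounts matched to the protein of ordinary rodent food. Every mouse was kept on its diet for 4 weeks and then given dextran sulphate sodium (DSS), a polymer that injures the colonic epithelium, in the drinking water for 5 days, so no uninflamed colon was sequenced. The sources used here do not give the age of the animals. The comparison asks how epithelial gene expression differed between the diets under inflammation. The paper reports that RAG KO mice fed cellulose resisted colitis better than those fed no fiber. The severity of the injury may therefore have differed along with the diet, and its part in the results was not tested.

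Absorptive cells of the intestine carry a dense layer of microvilli, the brush border, on which enzymes face the lumen. Its peptidases trim peptides from either end until single amino acids, dipeptides and tripeptides can be taken up, and several of them also inactivate peptide hormones. The colon receives little dietary peptide, and most of these enzymes are best known from the small intestine and the kidney. Meprins also cut proteins of the mucus and of the epithelial surface, and alkaline phosphatase removes phosphate groups from bacterial lipopolysaccharide and from nucleotides.

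Promoter sequences are shown for 4 of the genes, to set the DNA around the start of Ace and Mep1a, which were higher in FFD mice, beside that of Dpp4 and Alpi, which did not pass the test. Each sequence runs 5′ to 3′ on the strand of the gene, from 250 bases before to 50 bases after its start in RefSeq (GRCm38.p6), and capitals mark a match to one of the motifs searched. The outer of the Ace promoters lies at chr11:105967698-105967997 on the plus strand, that of Mep1a at chr17:43502724-43503023, that of Dpp4 at chr2:62412182-62412481 and that of Alpi at chr1:87101557-87101856, all on the minus strand except Ace.
Ace: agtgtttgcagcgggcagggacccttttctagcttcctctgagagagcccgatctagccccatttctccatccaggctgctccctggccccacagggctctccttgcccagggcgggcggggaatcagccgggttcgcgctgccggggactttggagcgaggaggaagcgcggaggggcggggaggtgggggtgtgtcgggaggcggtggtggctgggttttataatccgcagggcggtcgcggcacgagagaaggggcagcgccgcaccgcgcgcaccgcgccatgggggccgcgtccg
Mep1a: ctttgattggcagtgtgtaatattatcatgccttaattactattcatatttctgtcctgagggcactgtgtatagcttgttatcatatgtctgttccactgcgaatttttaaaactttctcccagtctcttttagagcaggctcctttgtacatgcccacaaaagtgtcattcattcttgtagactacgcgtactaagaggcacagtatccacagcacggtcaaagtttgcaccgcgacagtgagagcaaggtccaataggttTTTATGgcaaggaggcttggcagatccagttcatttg
Dpp4: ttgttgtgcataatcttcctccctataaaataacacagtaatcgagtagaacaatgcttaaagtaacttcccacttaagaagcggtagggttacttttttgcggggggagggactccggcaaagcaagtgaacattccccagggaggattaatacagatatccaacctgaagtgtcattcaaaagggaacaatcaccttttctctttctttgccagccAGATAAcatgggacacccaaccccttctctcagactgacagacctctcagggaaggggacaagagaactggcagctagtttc
Alpi: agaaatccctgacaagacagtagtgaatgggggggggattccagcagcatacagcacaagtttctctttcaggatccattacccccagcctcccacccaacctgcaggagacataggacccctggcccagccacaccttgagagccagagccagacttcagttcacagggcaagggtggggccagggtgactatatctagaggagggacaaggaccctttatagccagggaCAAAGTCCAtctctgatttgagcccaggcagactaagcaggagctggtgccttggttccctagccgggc

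The motifs searched on both strands were CAAAGTCCA and its looser form CAAAGTNCA for HNF4, TTTATG for CDX factors, AGATAA for GATA factors and GTTAAT for one arm of an HNF1 site. CAAAGTCCA was found in Alpi only, beginning 19 bases before the start, and occurs in 0.475% of the 32851 RefSeq promoters of this length. The looser form matched at the same place and occurs in 1.41% of promoters. No other matches overlapped. TTTATG was found in Mep1a, after the start, and occurs in 11.9% of all promoters. AGATAA was found in Dpp4, 32 bases before the start, and occurs in 11.2%. GTTAAT, which occurs in 7.10%, had no match in the promoters searched. The table held promoters of 7 of the 9 genes and none of Mep1b or Naaladl1, in which no motif was searched. Those of Ace, Anpep, Enpep and Xpnpep2 held none of these letters. The table held a second, inner start of Ace, at chr11:105974939-105975238, whose promoter is not shown. The outer Ace promoter was 69.7% G and C and the inner one 59%, and that of Mep1a was 42.3%.

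Total counts ranged from 10374154 to 27973285 in FFD and from 20853535 to 28588266 in CD mice, with the lowest total in FFD mouse 4, and the genes described had 36 to 4502 counts per mouse. The unit of level is CPM (TMM-normalized counts per 1e6 counts of the library). The libraries were of colonic epithelium by their markers. The summed level of 7 colonic epithelial markers, was 9132 to 12921 CPM in FFD and 7763 to 9352 CPM in CD mice. In FFD mice 4 of these 7 markers were higher, against 18.2% of all tested genes. None was lower by edgeR or at an unadjusted p under 0.05. Those higher were Slc26a3 (log2 fold change 1.34, adjusted p = 0.0011) and Krt20 (1.14, adjusted p = 0.0024), which mark mature surface cells of the colon, and Krt8 (0.32, adjusted p = 0.014) and Epcam (0.30, adjusted p = 0.0090), all by edgeR. The others, among them Cdx2 and Car1, did not pass. These markers moved together with the 3 peptidase genes that rose, and their part in those results was not tested. Small intestinal markers were low, with a sum over 6 genes of 15.7 to 28.5 CPM in FFD and 8.73 to 28.6 CPM in CD mice. Each CD sample carries the number 1 in its label and each FFD sample a 2, and a cage or batch so numbered cannot be told apart from the diet.

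Of the 9 genes, 3 were higher in FFD than in CD mice, none was lower and the other 6 failed to pass (edgeR's quasi-likelihood test, adjusted p under 0.05 over all 15044 genes). The genes that rose were the meprin subunits Mep1b and Mep1a and the angiotensin-converting enzyme Ace. Over all genes tested, 18.2% were higher and 18.6% lower in FFD mice, 36.8% in either direction together, and this is the background for 3 of 9. None of the 9 was lower at an unadjusted p under 0.05 or by DESeq2 either. The diets did not overlap in 2 of the 9 genes, Ace and Mep1b, and in 18.5% of all tested genes. The median log2 fold change of the 9 genes was 0.40, against -0.033 over all tested genes. Positive log2 fold changes stand for higher levels in FFD, and SE is the standard error of the log2 fold change. In bulk RNA, more cells of a type and more RNA per cell cannot be told apart.

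**Figure D1:**
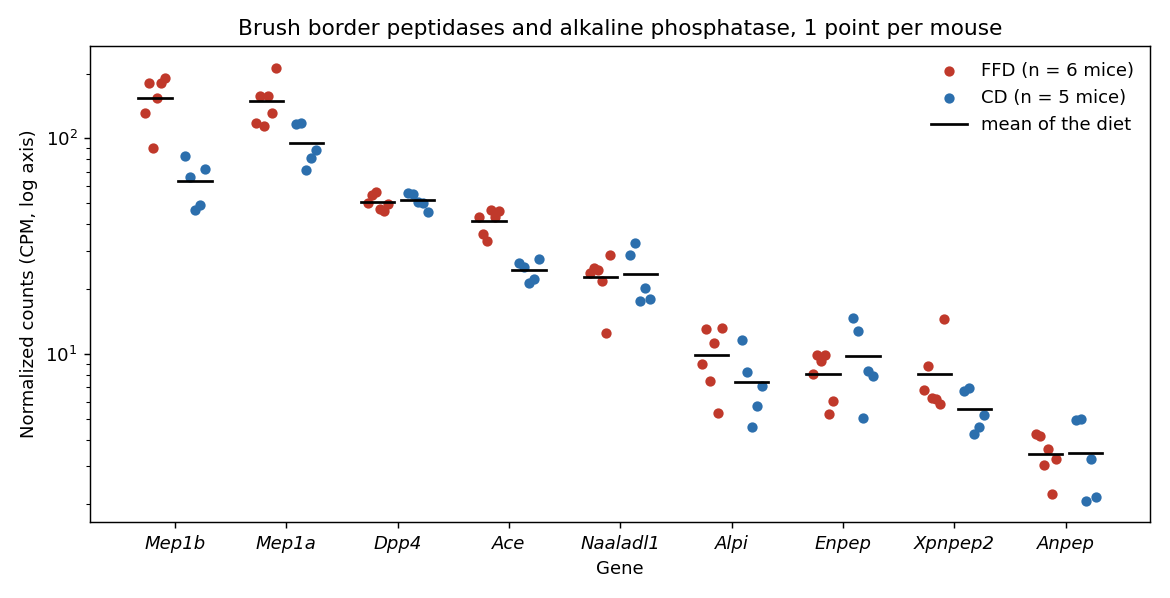
Normalized counts (CPM, log axis) of the 9 genes in colonic epithelial cells, 1 point per mouse, for FFD (red, n = 6) and CD (blue, n = 5) mice, with the mean of each diet as a bar. For Mep1b and Ace the 6 red points all lie above the blue ones, whereas the points of both diets overlap for the other 7 genes.

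The largest change was that of Mep1b, which encodes meprin beta. Meprin beta is a zinc metalloprotease anchored in the membrane of the microvilli, and in the mouse small intestine it cleaves the mucin Muc2. Mep1b lies on chromosome 18 of GRCm38 from 21061923 to 21100199 on the plus strand. Its level in FFD mice was 90.7 CPM at the lowest, 167 CPM at the median and 191 CPM at the highest, against 83.0, 65.9, 46.4, 49.0 and 71.7 CPM in CD mice 1 to 5. Every FFD mouse was above every CD mouse, although FFD mouse 3 was close to CD mouse 1. Complete separation in this direction was seen in 8.91% of all tested genes. The means were 155 ± 38.3 CPM in FFD (SD, n = 6) and 63.2 ± 15.5 CPM in CD mice (SD, n = 5), a fold of 2.44 (95% interval 1.82 to 3.29; log2 fold change 1.29, SE 0.20, adjusted p = 0.0011 from edgeR).

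Mep1a, on chromosome 17 from 43474324 to 43502812 on the minus strand, encodes meprin alpha, the partner subunit that is cut free in the cell and stays at the membrane when bound to meprin beta. It was at 115 to 213 CPM in FFD mice (median 144) and at 117, 117, 71.3, 81.0 and 88.1 CPM in CD mice 1 to 5. Of the 6 FFD mice, 5 were above all CD mice, and FFD mouse 3 was just below CD mice 1 and 2. The mean level was 149 ± 36.6 CPM in FFD (SD, n = 6) and 94.9 ± 21.1 CPM in CD mice (SD, n = 5). The fold was 1.57 (95% interval 1.21 to 2.03; log2 fold change 0.65, SE 0.17, adjusted p = 0.012 from edgeR).

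The change was larger for meprin beta than for meprin alpha transcripts. This was examined as the number of Mep1b reads per Mep1a read within each mouse, a ratio that does not depend on the scaling of the libraries. It was 1.10, 1.14, 0.792, 0.981, 1.37 and 0.898 in FFD mice 1 to 6, against 0.711, 0.562, 0.650, 0.605 and 0.814 in CD mice 1 to 5. FFD mouse 3 fell within the range of the CD mice and the other 5 FFD mice lay above it. The log2 ratio of FFD mice exceeded that of CD mice by 0.64 (exact permutation test over all 462 splits, two-sided, p = 0.0087; adjusted p = 0.011 over the 5 ratios computed). The ratio was chosen after the values of the genes were seen, as were the 4 others, and its p is no independent support.

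**Figure D2:**
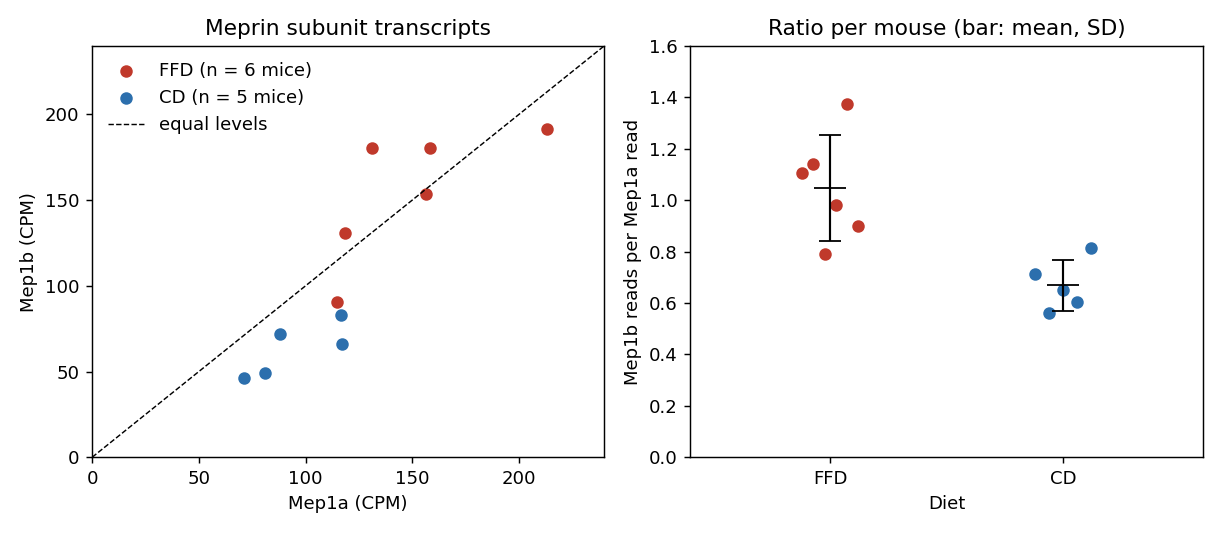
Left, CPM of Mep1b against CPM of Mep1a for each FFD (red, n = 6) and CD (blue, n = 5) mouse, with a dashed line at equal levels. Right, Mep1b reads per Mep1a read in each mouse, with the mean and SD as bars. All CD mice lie under the line, with ratios of 0.562 to 0.814, and FFD mice reach 1.37.

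The meprins together accounted for most reads of the 9 genes. Their share was 59.4% to 72.2% in FFD mice (median 68.5%), against 57.3%, 55.7%, 52.7%, 53.2% and 58.5% in CD mice 1 to 5. The diets did not overlap, although FFD mouse 3 (59.4%) was close to CD mouse 5 (58.5%). Both meprin genes were already seen to rise, so the share is no independent support. The summed level of all 9 genes was 345 to 566 CPM in FFD mice (median 444) and 223 to 349 CPM in CD mice (median 273). The sums overlapped between FFD mouse 3 and CD mouse 1.

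Ace, on chromosome 11 from 105967945 to 105989964 on the plus strand, encodes the angiotensin-converting enzyme, which removes dipeptides from the carboxyl end of peptides. Its level was 33.4 to 46.5 CPM in FFD mice (median 43.1), against 26.4, 25.4, 21.4, 22.2 and 27.5 CPM in CD mice 1 to 5. As with Mep1b, the diets did not overlap, and FFD mouse 3 had the lowest FFD value. The means were 41.3 ± 5.42 CPM in FFD (SD, n = 6) and 24.6 ± 2.68 CPM in CD mice (SD, n = 5), a fold of 1.67 (95% interval 1.44 to 1.95; log2 fold change 0.74, SE 0.10, adjusted p = 8.7e-04 from edgeR). Endothelial cells also express Ace. The summed level of 6 endothelial markers was 3.69 to 5.45 CPM in FFD and 4.97 to 7.68 CPM in CD mice, with 3 markers abundant enough to test, of which none was higher or lower by edgeR and 1 was lower at an unadjusted p under 0.05. Exons of Ace share 295 bases with Gm11651 on the opposite strand, and the sources used here do not say whether counting used strand.

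Dpp4 was the least variable of the 9 genes within either diet. It lies on chromosome 2 from 62330073 to 62412231 on the minus strand and encodes dipeptidyl peptidase 4, which removes dipeptides ending in proline or alanine from the amino end and inactivates incretin hormones. It was at 45.8 to 56.3 CPM in FFD mice (median 50.02) and at 55.9, 55.0, 50.9, 50.2 and 45.7 CPM in CD mice 1 to 5. The groups overlapped almost entirely, with a coefficient of variation of 8.21% in FFD and 7.96% in CD mice. The log2 fold change was -0.025, with a 95% interval of -0.18 to 0.13 (adjusted p = 0.81 from edgeR), which is a fold of 0.883 to 1.09. Without TMM the log2 fold change was -0.17 (adjusted p = 0.14 from edgeR). Exons of Dpp4 share 232 bases with Gm13561 on the opposite strand. T cells also express Dpp4, and Cd3e had 18 reads over all mice.

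Ratios to Dpp4 within each library are given as a description. The permutation test was run on them too and entered the adjustment over the ratios computed. Its p-values are left out, since these ratios pair genes already seen to differ with 1 that was not. There were 0.858, 0.655, 0.593, 0.991, 0.939 and 0.922 Ace reads per Dpp4 read in FFD mice 1 to 6, and 0.473, 0.462, 0.420, 0.442 and 0.603 in CD mice 1 to 5. FFD mouse 3 was again the only FFD mouse within the CD range. In FFD mice the log2 ratio exceeded that of CD mice by 0.77. For Mep1b over Dpp4 the difference was 1.31, with all 6 FFD mice above all CD mice, and for Mep1a over Dpp4 it was 0.67. Dpp4 reads per read of the microvillus protein villin (Vil1) were fewer in FFD mice, at 0.0457 to 0.0859 (median 0.0554), against 0.0662 to 0.104 (median 0.0954) in CD mice (log2 difference -0.65).

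The aminopeptidases Anpep and Enpep did not pass the test. Anpep, on chromosome 7 from 79821803 to 79861059 on the minus strand, encodes aminopeptidase N, which releases neutral amino acids and is also found on myeloid cells. It had the lowest counts of the 9 genes and was at 2.24 to 4.26 CPM in FFD mice (median 3.43), against 4.94, 4.97, 2.08, 3.25 and 2.16 CPM in CD mice 1 to 5. All FFD values lay inside the range of the CD mice. The log2 fold change was -0.028, with a 95% interval of -0.59 to 0.53 (adjusted p = 0.94 from edgeR), which is a fold of 0.666 to 1.44. The summed level of 9 macrophage and monocyte markers was 15.8 to 28.5 CPM in FFD and 14.1 to 20.3 CPM in CD mice. Of these 9, C1qb was higher (log2 fold change 0.84, adjusted p = 0.029 from edgeR) and the others did not pass. Adgre1 ran the other way (-0.42, adjusted p = 0.33 from edgeR). The sum of 6 neutrophil markers was 3.16 to 11.9 CPM in FFD and 1.19 to 4.48 CPM in CD mice. Of the 3 abundant enough to test, S100a8 was higher (log2 fold change 1.51, adjusted p = 0.031 from edgeR) and none was lower. The part of these cells in the Anpep level was not tested.

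Enpep, on chromosome 3 from 129269175 to 129332720 on the minus strand, encodes aminopeptidase A, which releases acidic amino acids and cleaves angiotensin II. It was at 5.25 to 9.90 CPM in FFD mice (median 8.63) and at 14.7, 12.8, 5.05, 8.31 and 7.90 CPM in CD mice 1 to 5. The 2 highest values were those of CD mice 1 and 2, while CD mouse 3 was the lowest of all 11 mice. The log2 fold change was -0.28, with a 95% interval of -0.83 to 0.26 (adjusted p = 0.40 from edgeR). Pericytes also express Enpep. The summed level of 9 pericyte and fibroblast markers was 7.35 to 9.01 CPM in FFD and 6.43 to 9.16 CPM in CD mice. Of the 3 markers abundant enough to test, Cspg4 was lower in FFD mice, at 0.544 CPM against 0.823 CPM in CD mice (log2 fold change -0.62, adjusted p = 0.034 from edgeR), and Pdgfrb (log2 fold change 0.32, adjusted p = 0.15) and Acta2 (log2 fold change -0.33, adjusted p = 0.57) did not pass. The part of these cells in the Enpep level was not tested.

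Naaladl1, on chromosome 19 from 6105782 to 6115792 on the plus strand, encodes a brush border relative of glutamate carboxypeptidase II. It was at 12.5 to 28.9 CPM in FFD mice (median 24.1) and at 28.9, 32.6, 17.6, 20.3 and 17.96 CPM in CD mice 1 to 5. FFD mouse 5 was below all other mice, and the remaining values overlapped. The log2 fold change was -0.046, with a 95% interval of -0.49 to 0.40 (adjusted p = 0.88 from edgeR).

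Xpnpep2 and Alpi were higher on average in FFD mice, but did not pass the test. Xpnpep2, on chromosome X from 48108725 to 48136981 on the plus strand, encodes the membrane-bound aminopeptidase P, which cleaves before proline. Its level was 5.85 to 14.4 CPM in FFD mice (median 6.51), against 6.73, 6.91, 4.26, 4.56 and 5.20 CPM in CD mice 1 to 5. Only FFD mice 2 and 6 were above all CD mice, and FFD mouse 6 stood far above the others. The log2 fold change was 0.54, with a 95% interval of 0.021 to 1.05 (adjusted p = 0.095 and unadjusted p = 0.043 from edgeR).

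Alpi, on chromosome 1 from 87098002 to 87101606 on the minus strand, was the only alkaline phosphatase gene that passed the filter on low counts. It was at 5.29 to 13.2 CPM in FFD mice (median 10.1) and at 11.6, 8.21, 4.57, 5.75 and 7.06 CPM in CD mice 1 to 5, with overlap between the diets. The log2 fold change was 0.40, with a 95% interval of -0.17 to 0.96 (adjusted p = 0.25 from edgeR). Its neighbors on chromosome 1, Akp3 and Alppl2, had 0 and 38 reads in all FFD mice and 6 and 21 reads in all CD mice, and the tissue-nonspecific Alpl on chromosome 4 had 16 reads in FFD and 30 reads in CD mice. Alpi, Akp3 and Alppl2 are close copies of each other, and the sources used here do not say how reads that match more than 1 of them were counted.

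**Figure D3:**
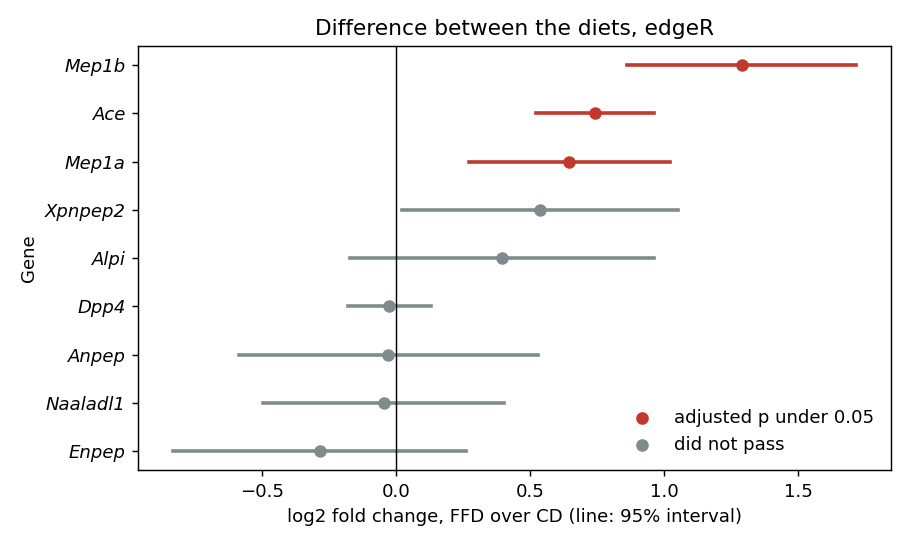
Log2 fold change of FFD over CD for each of the 9 genes (points) with its 95% interval (lines) from edgeR, in red where the adjusted p is under 0.05 and in gray otherwise. Mep1b (1.29), Ace (0.74) and Mep1a (0.65) passed, the interval of Dpp4 (-0.18 to 0.13) is the narrowest, and that of Xpnpep2 starts at 0.021.

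To compare levels between genes, CPM was divided by the length of the exons in kilobases. On this scale of level, Mep1b had 58.9 ± 14.6, Mep1a 43.1 ± 10.6, Naaladl1 9.13 ± 2.21, Dpp4 8.01 ± 0.658 and Ace 7.81 ± 1.03 CPM per kilobase in FFD mice (SD, n = 6), followed by Alpi (4.22 ± 1.36), Enpep (1.71 ± 0.427), Xpnpep2 (1.65 ± 0.678) and Anpep (0.829 ± 0.182). In CD mice the order was Mep1a (27.5 ± 6.10), Mep1b (24.1 ± 5.90), Naaladl1 (9.42 ± 2.75), Dpp4 (8.16 ± 0.649), Ace (4.65 ± 0.507), Alpi (3.18 ± 1.15), Enpep (2.07 ± 0.833), Xpnpep2 (1.13 ± 0.251) and Anpep (0.842 ± 0.343; SD, n = 5). The orders differ in the top pair. Mep1b was above Mep1a in 6 of 6 FFD mice, whereas Mep1a was above Mep1b in 4 of 5 CD mice. Dpp4 was above Ace in 2 of 6 FFD mice and in 5 of 5 CD mice. Naaladl1 and Dpp4 were not separated within CD mice, where Naaladl1 was above Dpp4 in 3 of 5, nor Enpep and Xpnpep2 within FFD mice, where Enpep was above in 4 of 6. All other neighbors in the order kept it in every mouse, except Naaladl1 over Dpp4 in FFD mice (5 of 6).

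The mice of each diet differed in a shared way. CD mouse 3 had the lowest CD value of 8 of the 9 genes, all but Dpp4, and the highest CD values were those of mouse 1 or mouse 2 for 8 genes. Among FFD mice, mouse 5 was lowest for 6 genes (Anpep, Enpep, Dpp4, Alpi, Naaladl1 and Xpnpep2), but not for those that rose. Mouse 3 was lowest for exactly these, Ace, Mep1a and Mep1b, and mouse 6 was highest for 5 genes. The spread within a diet was widest for Xpnpep2 in FFD mice (coefficient of variation 41.2%) and for Anpep and Enpep in CD mice (40.8% and 40.2%).

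Genes whose levels followed the 3 changed genes most closely over the 11 mice were sought by the mean absolute difference of log2 CPM, each gene centered on its own mean. This measure includes the difference between the diets. Of 11984 genes compared, the mitochondrial creatine kinase Ckmt1 differed from Ace by 0.057 and the lysosomal mannosidase Man2b2 by 0.069 on average, where Ace itself deviated from its mean by 0.37. For Mep1b, which deviated by 0.66, the mean difference from Igsf9 was 0.080. Nearest to Mep1a, which deviated by 0.33, were another brush border peptidase, the dipeptidase Dpep1 (0.099), and the glutamate transporter Slc17a8 (0.10).

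Related genes were examined in 6 lists around the same functions. Of 8 other brush border peptidases, 6 were tested, 1 was higher and 1 lower in FFD mice (median log2 fold change -0.18). Over all tested genes 18.2% were higher and 18.6% lower, and the shares in this list are near those. Dpep1, which splits dipeptides, was at 109 ± 27.9 CPM in FFD (SD, n = 6) and 75.6 ± 12.8 CPM in CD mice (SD, n = 5; log2 fold change 0.52, SE 0.16, adjusted p = 0.025 from edgeR). The call was lost without any 1 of mice 3 and 4 of CD and mouse 2 of FFD (log2 fold changes 0.46 to 0.48) and without TMM, when 0 were higher. Mme, the neutral endopeptidase neprilysin, was at 0.409 CPM in FFD and 0.977 CPM in CD mice on average (log2 fold change -1.18, adjusted p = 0.039 from edgeR) and kept its call without CD mouse 1 or FFD mouse 3 only (log2 fold changes of -1.26 to -0.98 without any 1 of the other 9 mice), and it lost the call with no filter and with the replicate block. Of 9 disaccharidases and further phosphatases of the brush border, 3 were abundant enough to test and none was higher or lower, whether by edgeR, at an unadjusted p under 0.05 or by DESeq2 (median log2 fold change -0.21). Mgam, the maltase-glucoamylase, had 446 ± 53.9 CPM in FFD (SD, n = 6) and 391.6 ± 30.3 CPM in CD mice (SD, n = 5; adjusted p = 0.13 from edgeR).

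Transporters take up the products of these peptidases. Of 11 tested genes for peptide and amino acid uptake, 6 were higher, 1 was lower and 4 did not pass, against 18.2% higher and 18.6% lower over all tested genes (median log2 fold change 0.37; without TMM 6 were higher and 2 lower). Slc15a1, the dipeptide and tripeptide transporter PepT1, was at 36.2 ± 10.98 CPM in FFD (SD, n = 6) and 12.8 ± 5.16 CPM in CD mice (SD, n = 5; log2 fold change 1.499, SE 0.27, adjusted p = 0.0020 from edgeR), with no overlap between the diets. Slc7a9, the light chain of the transporter for cystine and basic amino acids, rose by 1.23 and the glutamate transporter Slc1a1 by 0.56 on the log2 scale. Slc16a10, a carrier of aromatic amino acids, fell by 0.54 on that scale (adjusted p = 0.0063 from edgeR). Without FFD mouse 4, 2 genes of this list were lower.

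Of 16 tested peptidases inside the cell, 1 was higher, 4 were lower and 11 did not pass (median log2 fold change 0.0064), against 18.2% higher and 18.6% lower over all tested genes. The share lower is near that of all genes. Without TMM 1 was higher and 7 were lower, and 1 to 4 were lower with 1 mouse left out, the fewest without CD mouse 5. The puromycin-sensitive aminopeptidase Npepps rose by 0.37 on the log2 scale (adjusted p = 0.0040 from edgeR). Without FFD mouse 3, 2 genes were higher. Prolyl endopeptidase (Prep) fell by 0.33 on that scale, prolidase (Pepd), which splits dipeptides with proline, by 0.24 and thimet oligopeptidase (Thop1) by 0.24. The call of Pepd was lost with the replicate block and without mouse 3 or 5 of CD (log2 fold changes -0.22 to -0.18). That of Thop1 was lost with DESeq2, with no filter and without mouse 4 or 5 of CD or mouse 3, 4 or 6 of FFD (log2 fold changes -0.24 to -0.15). The number lower was 2 without mouse 3 or 4 of CD or mouse 4 or 6 of FFD.

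Of 16 tested scaffold genes that build the brush border, 13 were higher, against 18.2% of all tested genes, none was lower and 3 did not pass, Tmigd1 (log2 fold change 0.40), Cobl (-0.041) and Pdzk1 (-0.17) (list median log2 fold change 0.55; 13 higher without TMM), and none was lower at an unadjusted p under 0.05 or by DESeq2. Anks4b, an adaptor of the complex that joins microvilli at their tips, was at 129 ± 20.7 CPM in FFD (SD, n = 6) and 80.0 ± 2.45 CPM in CD mice (SD, n = 5; log2 fold change 0.68, SE 0.10, adjusted p = 0.0011 from edgeR), its partner cadherin Cdhr5 rose by 0.92 and ezrin (Ezr), which links the membrane to actin, by 0.54. For Vil1, used above in a ratio, it was 0.63 (adjusted p = 0.0023 from edgeR). Of 14 tested transcription factors of enterocytes, 4 were higher, against 18.2% of all tested genes, none was lower and 10 did not pass (median log2 fold change 0.093; without TMM 3 were higher and 2 lower), with 1 lower at an unadjusted p under 0.05 and none by DESeq2. Prdm1, a repressor that marks the fetal and suckling stage in the mouse small intestine, was at 7.58 ± 2.23 CPM in FFD (SD, n = 6) and 2.82 ± 0.739 CPM in CD mice (SD, n = 5; log2 fold change 1.42, SE 0.24, adjusted p = 0.0015 from edgeR). Klf4 and Elf3 rose by 0.45 and 0.36. Hnf4a, which binds the motif found in the Alpi promoter, had 805 ± 30.1 CPM in FFD (SD, n = 6) and 696 ± 60.0 CPM in CD mice (SD, n = 5; log2 fold change 0.21, adjusted p = 0.033 from edgeR), and lost this call without TMM, with no filter, with the replicate block and without mouse 3, 4 or 5 of CD or mouse 2 or 4 of FFD (log2 fold changes of 0.18 to 0.22 without 1 of these mice). Its relative Hnf4g, in the same list, did not pass (log2 fold change -0.056, adjusted p = 0.61 from edgeR), and binding of either factor at Alpi was not measured. Without CD mouse 5 or FFD mouse 1, 1 factor of the list was lower.

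**Figure D4:**
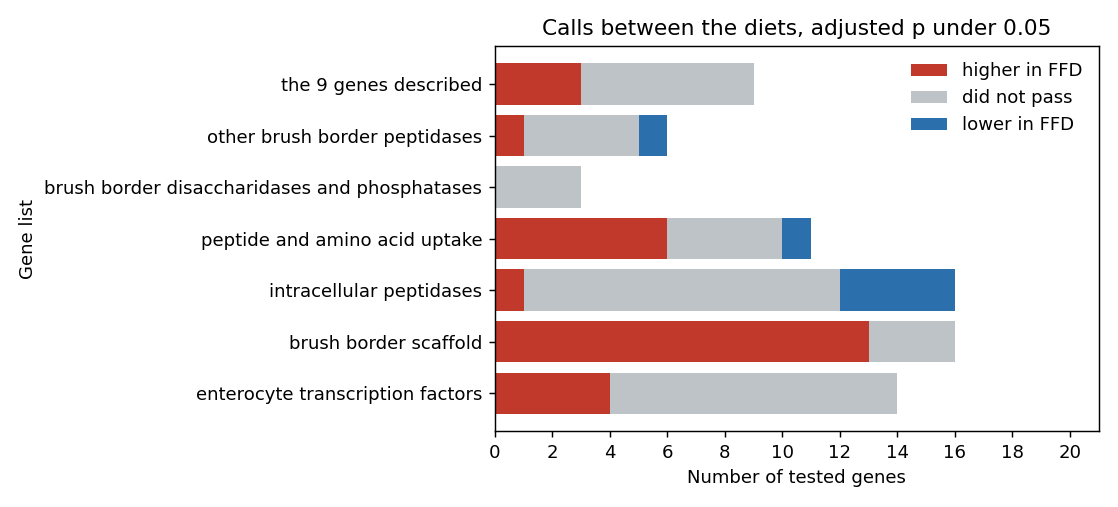
Number of tested genes (horizontal axis) among the 9 genes described and in each list of related genes that were higher in FFD (red), did not pass (gray) or were lower in FFD (blue) with edgeR's adjusted p under 0.05. The scaffold list has 13 of 16 genes in red, the 9 genes described have 3, and intracellular peptidases have 4 of 16 in blue.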

How the data were processed

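RNA of colonic epithelial cells from 6 FFD and 5 CD RAG1 KO mice was analyzed, 1 library per mouse. The authors detached the cells with DTT and EDTA, enriched them on a Percoll gradient, selected poly(A) RNA, sequenced single reads, used the Qiagen CLC Workbench for mapping to GRCm38, and deposited raw counts for each gene. The paper and the submitters' processing notes name DESeq2 (1.22.2, in R 3.5.1) for their own test. The sources used here give neither the annotation release nor the handling of multi-mapping reads and of strand.

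From the deposited counts, low genes were removed by filterByExpr (at least 10 counts, at least 15 in total), and diet alone was tested after TMM scaling by the quasi-likelihood method of edgeR 4.0.16 (R 4.3.3). Benjamini-Hochberg adjustment ran over 15044 genes, with a threshold of 0.05. Log2 CPM used a prior count of 2. The 95% intervals come from the standard error and degrees of freedom of the fit. They are not adjusted for multiple tests. The procedure was tested on simulated data. Libraries within a diet were distinct, as the smallest chi-square of a pair was 12.6 per degree of freedom. Coordinates and exon lengths are from GENCODE M21 (GRCm38), promoters from RefSeq (GRCm38.p6). The 5 read ratios were compared by an exact permutation test (scipy 1.17.1), and p is given for Mep1b over Mep1a only.

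Named are all 9 genes, up to 3 genes per related list and direction with the smallest p among those that passed, and the 2 genes nearest to each changed gene, of which 1 is not reported here. Mgam, Vil1, Tmigd1, Cobl, Pdzk1, Hnf4a, Hnf4g and the other alkaline phosphatase genes were named outside this rule. So were the markers Slc26a3, Krt20, Krt8, Epcam, Cdx2, Car1, Cd3e, C1qb, Adgre1, S100a8, Cspg4, Pdgfrb and Acta2. The genes and lists were chosen with earlier results of these data known. As alternatives, DESeq2 1.42.0, RLE size factors, no TMM, no filter, a strict filter (1 CPM in every mouse of a diet), limma-voom (limma 3.58.1), a replicate block and each mouse left out in turn were run. Other assays of the study were not analyzed here.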

Additional observations from a re-analysis of the deposited data

Results flagged for a closer look

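One value stood apart from its group. Xpnpep2 was at 14.4 CPM in FFD mouse 6, far from the other 5 FFD mice at 5.85 to 8.73 CPM, with a gap to the nearest of 0.664 of the range of the group. Among the 9 genes, 18 groups of mice were searched and 1 held such a value, where chance gives about 1 in 20. Without this mouse the log2 fold change of Xpnpep2 was 0.29 (adjusted p = 0.21 from edgeR), against 0.54 with it (adjusted p = 0.095). The same mouse was also highest among FFD mice for Mep1a, Mep1b, Alpi and Naaladl1.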

How the results depend on the processing

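Mep1b, Ace and Mep1a were higher in FFD mice and no gene of the 9 was lower under all 18 alternatives, with log2 fold changes of 1.12 to 1.42, 0.59 to 0.81 and 0.49 to 0.75 and adjusted p-values of 5.2e-09 to 0.0047, 3.7e-09 to 0.0040 and 0.0012 to 0.034. The other 6 genes passed in none of them. Directions of genes near 0 turned. Anpep was at 0.021 with limma-voom and 0.042 with the replicate block, and with 1 mouse left out Anpep ranged from -0.15 to 0.15, Dpp4 from -0.048 to 0.022 and Naaladl1 from -0.13 to 0.12.

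Without TMM the median of all genes moved by -0.15 on the log2 scale. All tested genes then split into 1636 higher and 4863 lower, against 2740 and 2792, and the lists gave 0 other brush border peptidases higher, 2 uptake genes lower, 7 intracellular peptidases lower and 2 transcription factors lower. Intracellular peptidases lower in FFD numbered 2 with DESeq2, with no filter and with the replicate block. Other brush border peptidases lower in FFD numbered 0 with no filter, with the strict filter and with the replicate block. With no filter 0 were lower because Mme no longer passed and with the strict filter because it was not tested.

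With 1 mouse left out, 2281 to 3086 genes were higher and 1983 to 2993 lower over all tested genes. Other brush border peptidases numbered 0 to 1 higher and 0 to 1 lower, disaccharidases and phosphatases 0 to 1 higher (1 without FFD mouse 1), uptake genes 1 to 2 lower, intracellular peptidases 1 to 2 higher and 1 to 4 lower, and transcription factors 0 to 1 lower. The 5 read ratios kept their direction with any 1 mouse left out, an alternative added after the data were seen, with log2 differences of 0.56 to 0.72 for Mep1b over Mep1a, 0.71 to 0.86 for Ace over Dpp4, 1.21 to 1.48 for Mep1b over Dpp4, 0.55 to 0.77 for Mep1a over Dpp4 and -0.77 to -0.58 for Dpp4 over Vil1. The cause of these moves was not tested.

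Whether the replicate numbers of the labels pair the mice cannot be told from the counts. Same-numbered mice had correlations of -0.28 to 0.23 in their deviations from the diet means, and differently numbered mice were not compared. With the replicate block 1953 genes were higher and 1829 lower. FFD mouse 6 has no CD mouse of its number, so it adds nothing to the diet difference in that fit. Counts of 36 to 138 per mouse limit what can be seen for Anpep.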
